A study of Mus musculus with 2 samples.

Results

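The promoters with the highest DNase-seq peaks in the mouse cerebellum belong to Dynlt1b, Hjurp, Bahcc1, Acin1 and Nup107, and the genes described here are these 5 together with Dynlt1a, Dynlt1c and Dynlt1f, the related copies of Dynlt1b on chromosome 17. They are 8 of 21829 nuclear protein-coding genes. The 5 leading genes were chosen by the height of the peak at their promoter, so heights and ranks are a description and carry no test. The name of the set holds only for the 5 leading genes, because the peak of Dynlt1a ranked 190 and 89 in its lists, that of Dynlt1c 23745 and 25575, and that of Dynlt1f 24232 and 24065.

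In DNase-seq, nuclei are treated with the nuclease DNase I and the cuts it makes are read along the genome. The tissue was cerebellum from 2 male B6CASTF1/J mice, 36 days old and F1 hybrids of C57BL/6J with CAST, with 1 library each. The labels record no treatment or other manipulation, and both animals form 1 group, called animals 1 and 2 here after their replicate numbers. Both carry the same donor entry, and the tissue holds mixed cell types, so the share of cells with an open site and the openness per cell cannot be told apart. Paired values are those of animals 1 and 2 in that order.

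A promoter is the stretch around a gene's start where RNA polymerase and transcription factors assemble, and nucleosomes are usually displaced there. DNase I then cuts the exposed DNA often, while a factor sitting on the DNA shields the bases beneath it and leaves a short gap in the cuts, called a footprint. Promoters of genes that most cells use often carry GC boxes, bound by the SP and KLF factors, and CCAAT boxes, bound by NFY.

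The members have unrelated roles. Dynlt1b encodes a Tctex-type light chain of cytoplasmic dynein, the motor that carries cargo toward the minus ends of microtubules. Hjurp encodes the chaperone that places the histone variant CENP-A at centromeres. Bahcc1 encodes a large chromatin protein with a BAH domain. Acin1 encodes acinus, an RNA-binding subunit of the ASAP complex that acts with splicing factors. Nup107 encodes a scaffold protein of the nuclear pore's Y complex.

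For Hjurp, Bahcc1 and Nup107, the part of the animal 1 peak that lies before the annotated gene start is printed below. Several footprints described later lie in these bases, while others, such as that over the Nup107 start, lie outside them. Each runs 5′ to 3′ along the strand of its gene, from the GRCm38.p6 reference, and capitals mark the bases inside footprints of both animals. The stretches lie at chr1:88277634-88277760 on the minus strand for Hjurp, chr11:120232681-120232880 on the plus strand for Bahcc1 and chr10:117792761-117792940 on the minus strand for Nup107. The Acin1 peak lies inside annotated exons, so only a site of 29 bases at chr14:54686679-54686707 on the minus strand is shown, and there the capitals mark a GGGCGG and a CCAAT word.
Hjurp: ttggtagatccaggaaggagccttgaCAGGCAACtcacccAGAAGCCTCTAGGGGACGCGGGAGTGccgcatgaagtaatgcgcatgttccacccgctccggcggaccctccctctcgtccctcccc
Bahcc1: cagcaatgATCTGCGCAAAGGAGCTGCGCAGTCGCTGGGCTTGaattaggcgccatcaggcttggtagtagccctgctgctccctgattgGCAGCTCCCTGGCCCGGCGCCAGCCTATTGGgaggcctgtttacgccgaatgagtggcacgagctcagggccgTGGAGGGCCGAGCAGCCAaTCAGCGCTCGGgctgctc
Nup107: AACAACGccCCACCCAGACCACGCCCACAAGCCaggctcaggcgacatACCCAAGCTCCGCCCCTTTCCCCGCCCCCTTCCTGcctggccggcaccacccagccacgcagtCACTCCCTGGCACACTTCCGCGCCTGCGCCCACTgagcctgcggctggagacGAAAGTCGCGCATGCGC
Acin1: atggcagtGGGCGGggCCAATccggtccg

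The lists held 140127 and 114404 peaks and 342409 and 262603 footprints. A peak's height is the authors' deposited signal on each library's own scale, so a height is read only within its animal. Over the 13734 genes with a promoter peak in both animals, the median ratio of animal 1 to animal 2 was 1.51. Promoter windows reached 1000 bp to either side of each protein-coding start in the annotation. Of all genes, 67.0% and 63.5% had a peak there, and 62.9% had one in both animals. All 8 genes described here had one in both, which the choice of the leading genes fixed for 5 of them. All 6 granule cell markers had a peak in such a window in both animals, from Cbln3 at 27.9 and 17.1, a peak also in the window of Khnyn, down to Gabra6 at 1.91 and 5.36. Of the 4 markers of other tissues, Acta1, Alb, Dlx1 and Dlx2, none had one in either animal. Of the Purkinje cell markers 3 of 4 had one in both animals, with Itpr1 highest at 16.0 and 12.5 and Pcp2 without one. Of the astrocyte markers 2 of 3 did, with Slc1a3 highest at 0.986 and 0.968, and Mbp of oligodendrocytes had 5.39 and 2.77.

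The Dynlt1b promoter carried the highest peak of the genome in both animals. Its heights were 76.7 and 50.5, against a median of 9.10 and 6.65 over the highest promoter peaks of all genes that had one. The peak covered the same 160 bp in both lists, chr17:6430021-6430180, of which 91 bp lie before the gene start and 69 bp in the 5′ UTR. The gene runs from 6430112 to 6436296 on the plus strand, and the peak also lies in an intron of the lincRNA Gm26848. Few peaks were listed around it. Within 10000 bp on both sides, animal 1 had 1 other peak, of height 0.677, and animal 2 had none, so the promoter stood 113-fold above the next peak in animal 1. The 1000 bp on both sides of the start were 98.5% identical to those of Dynlt1c, gaps left out. Sequence held elsewhere in the reference was counted only inside peaks. Whether it bears on the lack of peaks around Dynlt1b was not tested.

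The Hjurp peak had heights of 54.1 and 38.2 and ranked 5 and 3. It spanned the gene start at chr1:88277521-88277760 in both animals, with 113 bp in the Hjurp 5′ UTR and 127 bp before the start of this minus-strand gene. Trpm8, which encodes the cold-sensing ion channel, begins 28 bp away on the opposite strand, and the peak covers 62 bp of the first exon of a non-coding Trpm8 transcript. The protein-coding starts of Trpm8 lie elsewhere, and the highest peak there was 4.72 and 2.48. The shared start region therefore held the high peak, and the protein-coding start of Trpm8 did not.

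The Bahcc1 peak reached 60.5 and 31.1, at ranks 2 and 7. It lay wholly before the gene start, at chr11:120232681-120232880 in animal 1 and 20 bp longer in animal 2, and no annotated exon or intron covers it. Bahcc1 differed from the other leading genes in having a second high peak nearby. This second peak, at chr11:120231581-120231740, centred at -1287 bp from the start and thus outside the promoter window, had heights of 36.0 and 19.7 at ranks 140 and 326. The promoter peak stood 1.68-fold and 1.58-fold above it. Footprints covered 56.9% and 51.2% of the second peak.

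The Acin1 peak had heights of 53.0 and 31.6, at ranks 6 and 5. In animal 1 it lay downstream of the start, at chr14:54686601-54686880, and in animal 2 it was 60 bp longer and reached 9 bp past the start. It lay over 180 bp of coding sequence of the first exon and part of the 5′ UTR. The same peak fell wholly in a 5′ UTR exon of 1700123O20Rik, a gene of the opposite strand that starts 715 bp away, so the height belongs to the windows of both genes. No other peak lay within 10000 bp in animal 1, and 1 of height 0.375 did in animal 2.

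The Nup107 peak reached 56.4 and 29.7, at ranks 4 and 9. It lay at chr10:117792761-117792940 in animal 1, wholly before the start of this minus-strand gene. In animal 2 it was 60 bp longer and ended 5 bp inside the 5′ UTR. The next peak within 10000 bp had a height of 0.515 in animal 1 and 0.425 in animal 2. Dynlt1b, Acin1 and Nup107 thus shared an isolated position in the peak lists, with the limit given above for Dynlt1b, while Bahcc1 did not. Hjurp lay between, with 3 other peaks within 10000 bp in both animals, the highest at 1.72 and 3.64.

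Heights of the other Dynlt1 copies were lower. Dynlt1a had 34.4 and 23.5, at chr17:6317381-6317560 in animal 1, over its own start on the minus strand. Dynlt1c had 3.66 and 2.48, from different peaks of its window, centred 30 bp before the start in animal 1 and 190 bp after it in animal 2, and Dynlt1f had 3.56 and 2.66. Dynlt1b stood 2.23-fold and 2.15-fold above Dynlt1a, 21-fold and 20.4-fold above Dynlt1c, and 21.6-fold and 19.0-fold above Dynlt1f. Both animals had a promoter peak at each of the 4 copies, and the order Dynlt1b, Dynlt1a, then the other two was the same in both. Dynlt1c and Dynlt1f changed places between the animals. The ratio of animal 1 to animal 2 ranged from 1.34 for Dynlt1f to 1.95 for Bahcc1 over the 8 genes.

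**Figure D1:**
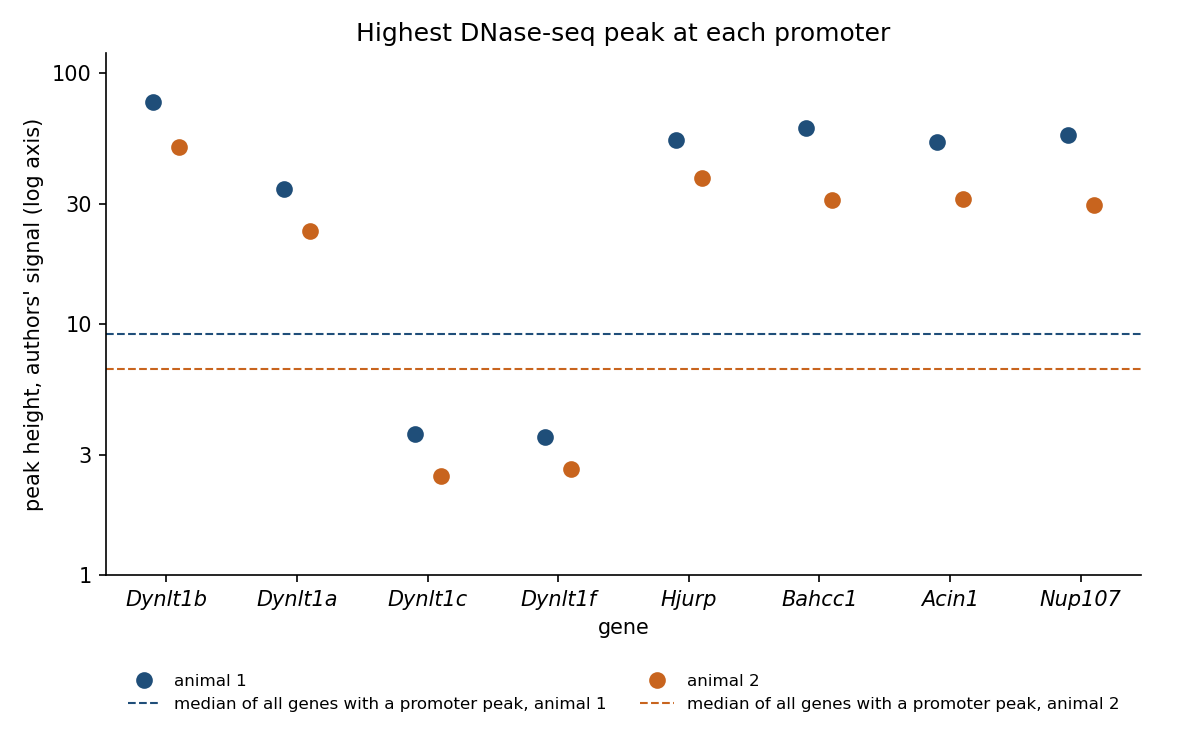
Height of the highest promoter peak of each gene (vertical log axis, authors' signal), with 1 point per animal and the median over all genes with a promoter peak, by their highest one, as a dashed line for each animal. The 5 leading genes lie between 29.7 and 76.7, Dynlt1a at 34.4 and 23.5, and Dynlt1c and Dynlt1f at 2.48 to 3.66, below the medians of 9.10 and 6.65.

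Peaks present in both animals were ordered by the worse of their 2 ranks to show where the leading genes end. Dynlt1b, Hjurp, Acin1 and Bahcc1 took the first 4 places and Nup107 the sixth. Between them, at place 5, stood a peak at chr8:20424741-20424920 in the pseudogene 2610005L07Rik, with heights of 49.6 and 31.5 and the nearest protein-coding start 61620 bp away. Just outside, at place 7, came a peak over the ribosomal RNA gene CT010467.1 on chromosome 17 with 47.4 and 48.7, the only one of the first 10 with the higher value in animal 2.

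The next promoters resembled the leading ones in rank over both animals. They were those of Fzr1, an activator of the anaphase-promoting complex, with 47.3 and 29.0, and of Rab40c, a small GTPase, with 47.1 and 28.4. The promoter window shared by Rragc, a Rag GTPase of the amino acid branch of mTORC1 signalling, and 4930535I16Rik followed with 52.9 and 28.1. Nup50, a nucleoporin, reached 47.3 and 27.7. The peak in the windows of Gys1, muscle glycogen synthase, and Ruvbl2, a chromatin remodelling ATPase, reached 46.9 and 27.5, and that of Glo1, glyoxalase 1, 45.1 and 29.3. Nup107 at place 6 and Fzr1 at place 8 were 56.4 and 29.7 against 47.3 and 29.0, so in animal 2 they were nearly level. Of the first 10 shared peaks 7 lay in a promoter window, as did 33 of the first 40 and 89 of the first 100. The 3 others of the first 10 include a peak inside Vps37c, 20845 bp from its start, with 59.4 and 28.4.

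**Figure D2:**
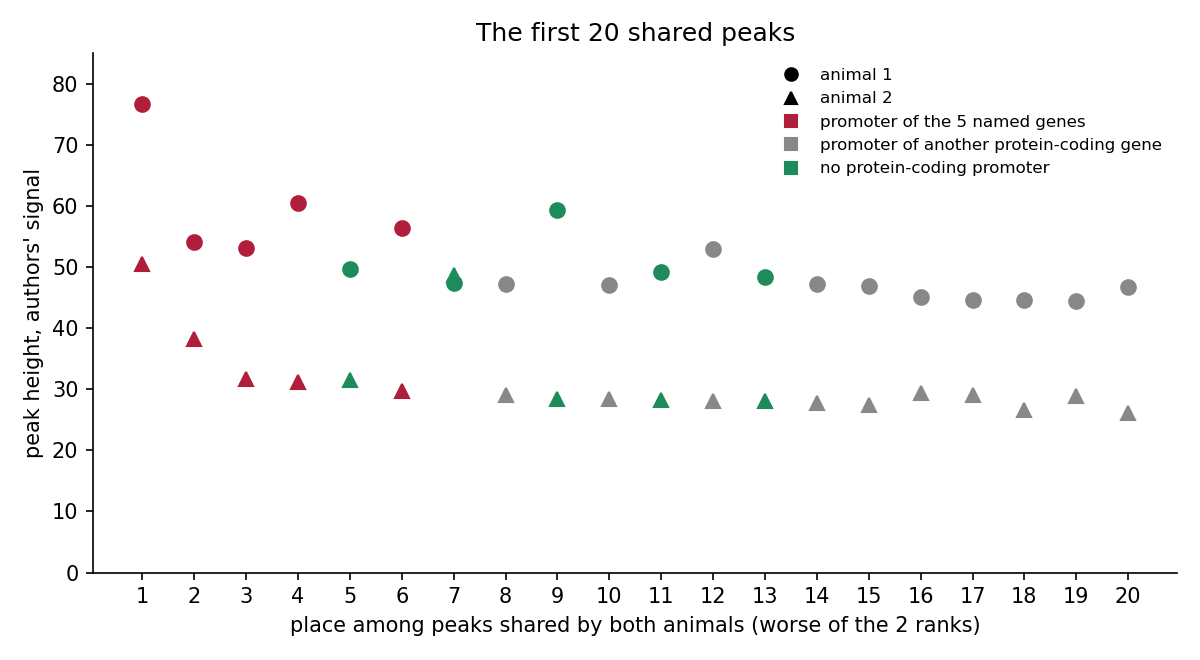
Heights (vertical axis, authors' signal) of the first 20 peaks shared by both animals, ordered along the horizontal axis by the worse of the 2 ranks, with circles for animal 1 and triangles for animal 2. Dynlt1b stands apart in animal 1 at 76.7, while in animal 2 its 50.5 lies close above the 48.7 at place 7. The values of Nup107 at place 6, 56.4 and 29.7, pass into those of the following promoters without a gap in animal 2.

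Footprints filled more of the leading peaks than of promoter peaks in general, with Hjurp lower. The share of peak bases inside a footprint was 66.9% and 70.6% at Dynlt1b, 66.7% and 65.0% at Nup107, 57.9% and 61.8% at Acin1, and 54.5% and 43.2% at Bahcc1. At Hjurp it was 28.8% and 30.8%. The median over all promoter peaks was 15.5% and 13.1%, and over the 100 promoter peaks next in height it was 50% and 47.7%. Dynlt1b, Nup107 and Acin1 lay above the medians of the peaks next in height in both animals, Bahcc1 lay above in 1 animal only, and Hjurp lay below in both. The footprint caller reads the same cuts that make the height, so these shares are not independent of the choice of genes and were not tested.

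**Figure D3:**
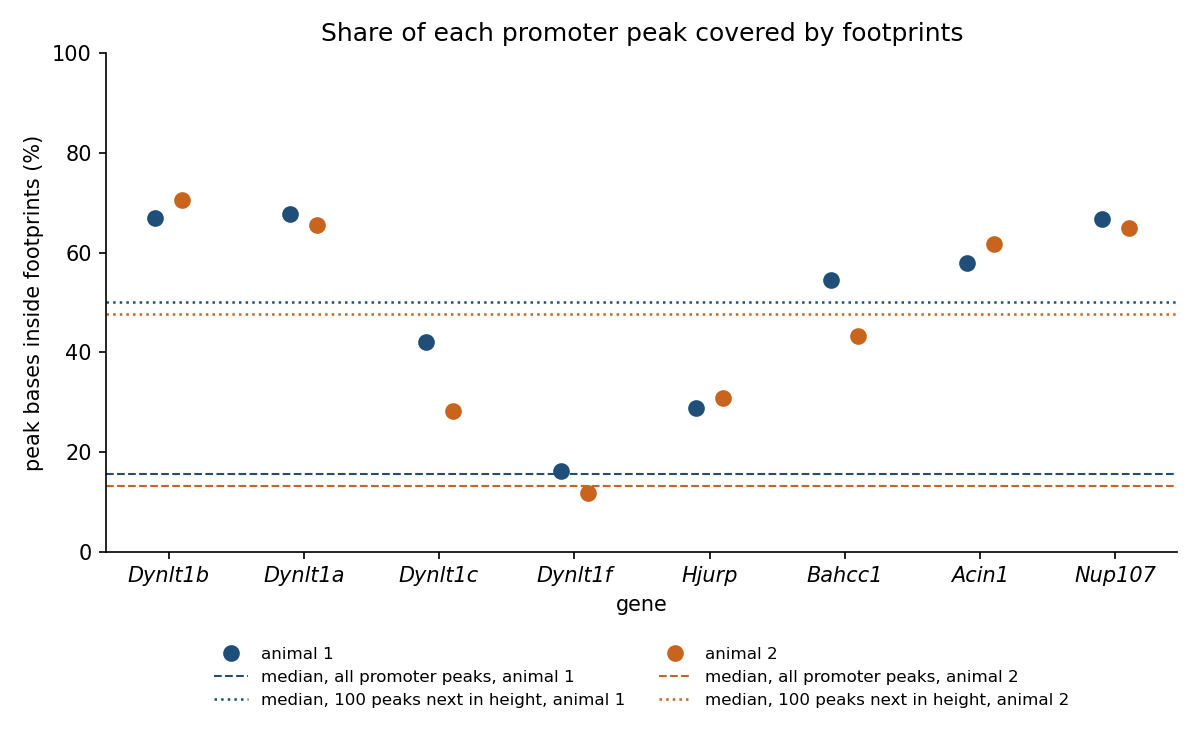
Percent of the bases of the highest promoter peak that lie inside footprints (vertical axis) for each gene and animal, with the medians of all promoter peaks (dashed) and of the 100 promoter peaks next in height (dotted). Dynlt1b, Dynlt1a and Nup107 lie between 65.0% and 70.6%, Hjurp at 28.8% and 30.8%, and Dynlt1f at 16.1% and 11.8%.

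The layout of footprints was similar in both animals. Of the bases inside a footprint of either animal, 89.7% were shared at Dynlt1b, 94.4% at Nup107, 87.8% at Acin1, 87.2% at Bahcc1 and 78.8% at Hjurp. The lowest value was 23.2% at Dynlt1f, whose peak had 3 footprints in both animals, none wider than 15 bp. Pooled over the 5 leading peaks, 88.5% of the bases were shared.

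At Dynlt1b, 3 wide footprints flanked the start. With the first base of the gene counted as 0, they ran from -88 to -65 in both animals, from -39 to -7 in animal 1 and -48 to -8 in animal 2, and from 18 or 19 to 66. Animal 1 had a further one of 7 bp at the end of the peak. The start itself was left uncovered. Each of the 3 held 1 GGGCGG word, the GC box core of the SP and KLF factors, centred at -77, -26 and 30. The CCAAT word over the start, on the minus strand, lay in no footprint.

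At Nup107, the footprints touching the peaks of both animals ran from -51 upstream to -238 in animal 1. The widest one ran from -187 to -153 in animal 1 and held 2 GGGCGG words, centred at -164 and -176. The footprint that reached from -73 to -51 covered the single match to the palindromic consensus of NRF1, a factor of many housekeeping promoters. In animal 2 a footprint from -19 to 5 held a CCGGAAG word of the ETS factors, and this word lay in a footprint of animal 1 too, beyond the end of its narrower peak. In the sequence above, the NRF1 match forms the last 10 bases.

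At Bahcc1, the 3 footprints of animal 1 ran from -258 to -223, -176 to -146 and -109 to -68. The first matched in animal 2 to within 1 bp, the second exactly, and the third was listed there as a pair, -103 to -86 and -84 to -74. Of its 3 CCAAT words, those at -148 and -86 lay in footprints of both animals and that at -178 did not. No GGGCGG word was present in the peak.

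At Acin1, 7 footprints in animal 1 and 9 in animal 2 were strung over the wider peak. The widest, from 135 to 183 after the start, had the same ends in both animals and held a CCAAT word. A footprint from 224 to 243 in animal 1 and 225 to 245 in animal 2 held a GGGCGG word and the centre of a CCAAT word 2 bases apart, the site printed above. In animal 2 the last footprint, from -13 to 21, spanned the start. Inside the peaks of animal 1, the footprints of Acin1 thus lay after the annotated start and those of Nup107 before it. Those of Bahcc1 lay before it in both animals. This placing at Acin1 and Nup107 depends on the narrower peaks of animal 1. Over the peaks of both animals joined, animal 1 had 8 footprints at Acin1 and 7 at Nup107, beside 7 and 5 in its own peaks. All of these overlapped footprints of animal 2.

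At Hjurp, footprints were short. The widest, 27 bp, lay at -88 to -62 in animal 1 and 1 bp away in animal 2, and another of 24 and 22 bp lay in the UTR, ending 107 bp after the start. The single consensus word in the peak, CCGGAAG at 15, lay in no footprint.

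**Figure D4:**
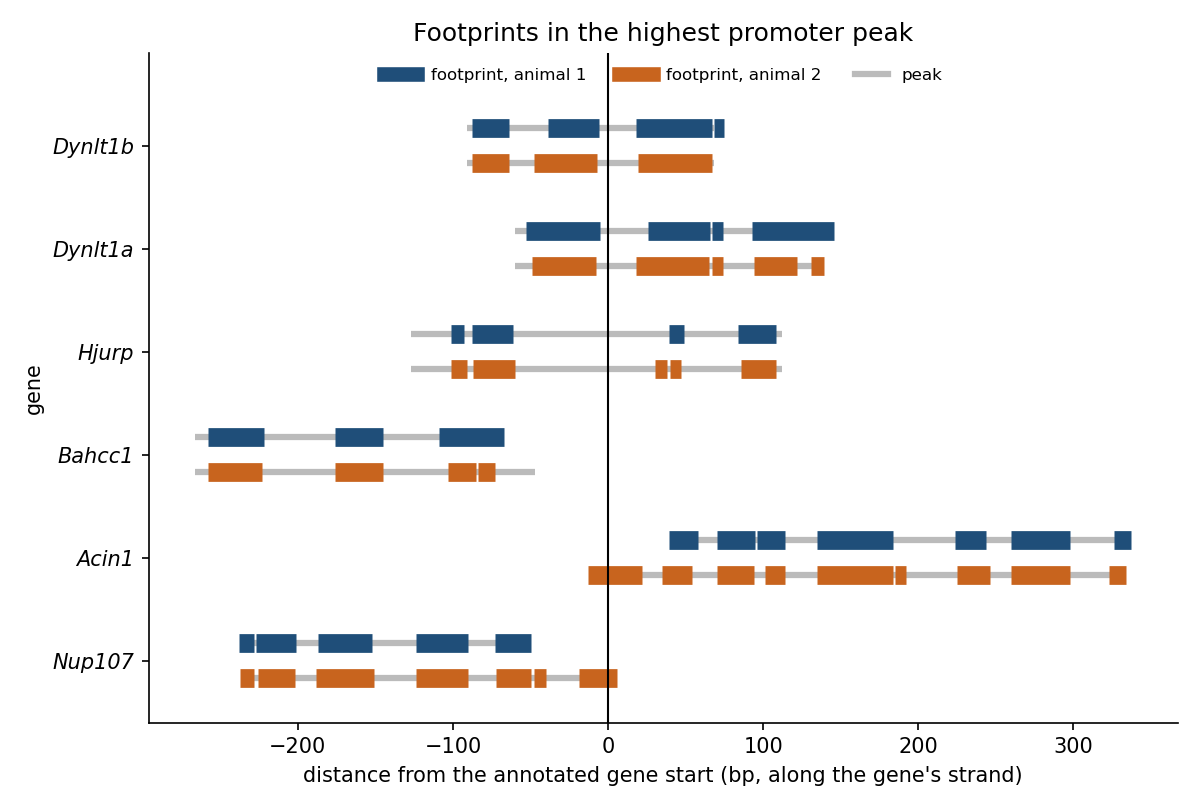
Footprints (coloured bars, animal 1 above animal 2) inside the highest promoter peak (grey line) of 6 genes, on a horizontal axis of distance from the annotated gene start along the gene's strand. The Dynlt1b and Dynlt1a footprints flank the start, those of Bahcc1 end 68 bp or more before it, and those of Acin1 reach 336 bp after it.

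Across the 5 leading peaks there were 15 matches to 11 consensus words searched on both strands, and the centre of 12 lay in a footprint of both animals. They were 6 of 6 GGGCGG, 4 of 6 CCAAT, 1 of 2 CCGGAAG and 1 of 1 NRF1 words. Footprints covered from 28.8% of the peak bases at Hjurp to 70.6% at Dynlt1b. Whether the 12 matches exceed such shares was not tested. From 250 bp before to 50 bp after the start, GGGCGG stood in 43.1% of all promoters and in 5 of the 8 genes. CCAAT stood in 39.1% and in 6, and CCGGAAG in 10.8% and in 3. The NRF1 word stood in 1.23% and in Nup107 alone, and TATAAA of the TATA box in 12.7% and in Hjurp alone. The 4 Dynlt1 copies are related in sequence, and each held GGGCGG and CCAAT, so they are not separate cases. Among the 5 leading genes, 2 held GGGCGG, 3 held CCAAT and 3 held CCGGAAG. The words TGACGTCA (CRE) and CACGTG (E-box) and the consensus words of YY1, ZNF143, ZBTB33 and CTCF matched in none of these 8 stretches. Beyond them, the highest Dynlt1f peak held a TGACGTCA word centred 563 bp after the start, in a footprint of both animals. A match describes letters and not binding.

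Base composition did not set the leading peaks apart as a group. The GC content was 71.2% at Dynlt1b and 69.4% and 67.9% at Nup107, above the medians of all promoter peaks, 63.2% and 62.7%. It was 58.9% and 57.9% at Acin1 and 61.2% at Hjurp, below them. The ratio of observed to expected CpG was 1.15 and 1.16 at Acin1 and 0.637 and 0.659 at Bahcc1, on both sides of the medians of 0.705 and 0.713. The accessible region around the peak was merged from stretches with a false discovery rate of at most 0.05. It was 1274 and 1379 bp wide at Acin1 and 537 and 515 bp at Dynlt1b. The medians over all regions, at promoters or not, were 115 and 98.0 bp. Among the other Dynlt1 copies, the region was 698 and 829 bp wide at Dynlt1a, 705 and 723 bp at Dynlt1c, and 474 and 437 bp at Dynlt1f.

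The Dynlt1 copies allowed a comparison of nearly the same sequence at different heights. Aligned over 1000 bp on both sides of the start, Dynlt1b was 98.5% identical to Dynlt1c, 83.4% to Dynlt1f and 59.0% to Dynlt1a, gaps left out. Over the 160 bp of the Dynlt1b peak the order was different. There Dynlt1a had 5 substitutions, an identity of 96.9%, and Dynlt1c and Dynlt1f had 6 each, 96.2%, with no gaps. The first 64 bases of the stretch were identical in all 4 genes.

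The copies differed at the middle of the 3 GGGCGG words of Dynlt1b. Dynlt1a kept this word, and substitutions shared by Dynlt1c and Dynlt1f removed it. Dynlt1c and Dynlt1f had the same 6 substitutions. The GGGCGG words at -77 and 30 were kept in all 4.

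Footprints over the aligned stretch followed the same division. At Dynlt1a they covered 67.5% and 66.9% of it, at Dynlt1b 66.9% and 70.6%, at Dynlt1c 37.5% and 20%, and at Dynlt1f 11.2% and 13.8%. The first GGGCGG word lay in a footprint of both animals in all 4 genes. The middle and the last word did so at Dynlt1b and Dynlt1a. At Dynlt1c and Dynlt1f neither the altered middle word nor the kept last word lay in a footprint of either animal. The highest peaks touching the stretch were 3.66 and 2.19 at Dynlt1c and 2.62 and 1.97 at Dynlt1f. The highest peak of the Dynlt1f window lay outside the stretch, centred 509 and 489 bp after the start, as did that of Dynlt1c in animal 2.

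Repeated sequence also divided Dynlt1b and Dynlt1a from Dynlt1c and Dynlt1f. A word of 36 bases was called repeated when the reference holds it at another place on either strand. Of the 125 words in the aligned stretch, 47.2% were repeated for Dynlt1b, 36.8% for Dynlt1a and 100% for Dynlt1c and Dynlt1f. With words of 76 bases the shares were 7.06% for Dynlt1b and Dynlt1a and still 100% for the other two. In this stretch the genes with the low peaks were thus also those without a single unrepeated word, and neither the read length nor the treatment of reads with several places is stated in the sources. The part of this difference in the heights and footprints was not tested. Over the highest peaks of the windows, both animals joined, 17% of the 36-base words were repeated for Dynlt1a and 66.8% for Dynlt1c. For Dynlt1f the share was 8.11%. This Dynlt1f peak lay in an intron, outside the aligned stretch. Over its whole length it aligned at 95% identity to 2 other places on chromosome 17. Whether repeated sequence bears on its height was not tested. No repeated word occurred in the peaks of Hjurp, Bahcc1, Acin1 and Nup107, also at 24 bases. Among 1000 promoter peaks of animal 1 taken at even steps of rank, 5.90% had a repeated word.

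The other places with words of the Dynlt1b peak were all on chromosome 17, in the 3 copies. A further place aligned over 49 bases at 93.9% identity, chr17:6493173-6493221, at an exon of Gm26848, and had a peak of 6.84 and 4.53. Among the first 40 shared peaks, 32 of the 33 in promoter windows had no repeated word, Dynlt1b being the other one, and 3 of the 7 outside promoter windows had some. These 3 were the peaks at places 5, 7 and 11, with 77.3%, 100% and 71.2% of their words repeated.

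**Figure D5:**
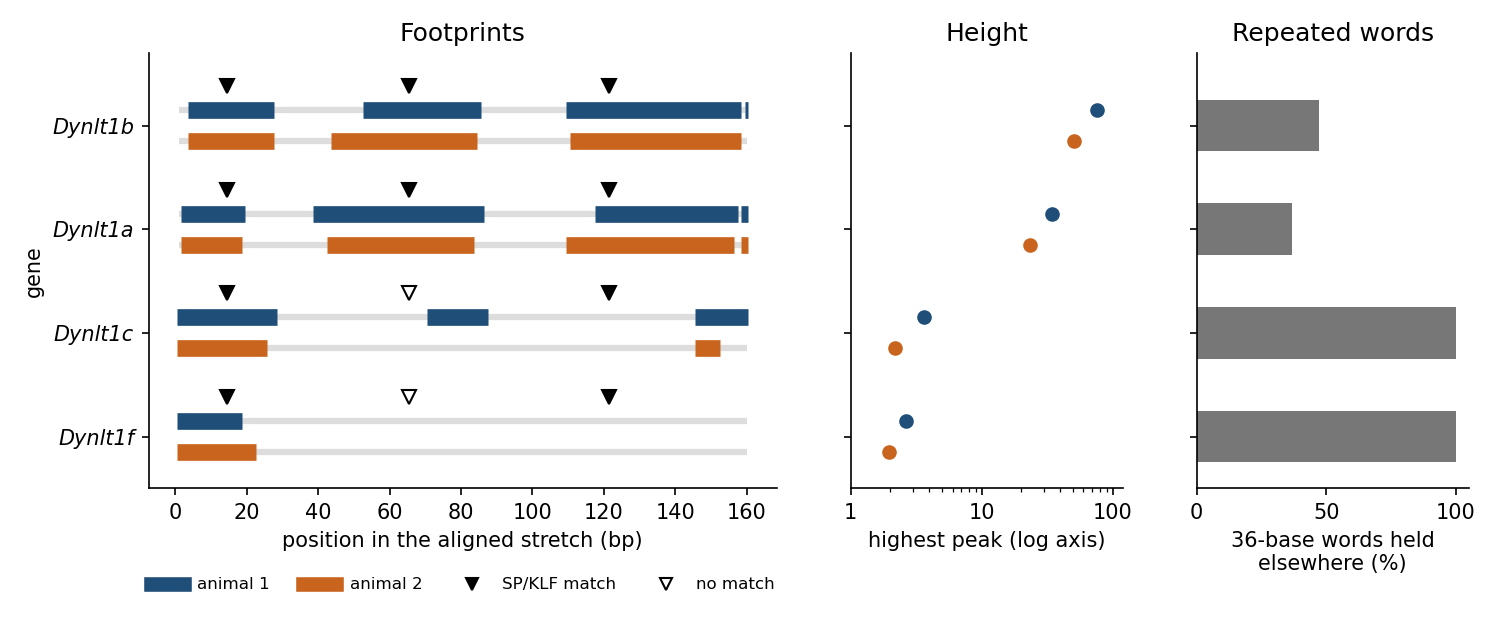
The 160 bp of the Dynlt1b peak and the aligned stretch of its copies: left, footprints of animal 1 (blue) and animal 2 (orange) by position, with triangles at the 3 GGGCGG places, open where the word is altered; middle, the highest peak touching the stretch (log axis, authors' signal); right, percent of 36-base words held elsewhere in the reference. Dynlt1c and Dynlt1f have the altered word, the low peaks of 1.97 to 3.66 and 100% repeated words.

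Genes near the 8 starts had peaks about as often as genes in general. Within 100000 bp of the 8 starts lay 20 other protein-coding genes, of which 14, or 70.0%, had a promoter peak in both animals, beside 62.9% of all genes. Of the 14, 1700123O20Rik had it through the Acin1 peak itself, and without it 13 of 19 did, 68.4%. The level next door varied. Slc38a10, an amino acid transporter 81601 bp from Bahcc1, had 39.8 and 23.1 at ranks 70 and 103, and Actg1, cytoplasmic gamma actin on the other side, 8.95 and 5.68. Slc35e3 and Rap1b, a small GTPase, on both sides of Nup107, had 21.8 and 12.1, and 20.9 and 12.2. Mroh2a beside Hjurp, Gm29776 beside Acin1 and Sytl3, 3193 bp from Dynlt1f, had none in either animal. Tmem181a beside Dynlt1a had 3.12 and 2.19. No protein-coding gene started within 100000 bp of Dynlt1b.

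Listed genes with a related role or domain almost all had promoter peaks. Their heights below those of the leading genes follow from the choice of the leading genes by height. Of 70 genes in 5 lists, the 8 genes themselves left out, 69 had one in both animals, beside 62.9% of all genes. The median over all genes with a promoter peak was 9.10 and 6.65. For 19 other dynein chains and dynactin subunits the medians were 14.4 and 9.25, and Dynlrb1, a light chain of the roadblock type, came after Dynlt1b and Dynlt1a with 29.3 and 18.6. For 12 other centromere and CENP-A loading genes they were 9.71 and 7.50. After Hjurp came Cenpk, a subunit of the inner kinetochore, with 16.9 and 11.5, and Mis18a, which acts before Hjurp in CENP-A loading, with 16.4 and 9.69.

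Of 21 other nucleoporins 20 had a promoter peak in both animals, with medians of 21.7 and 11.3. Nup50 and Nup153 followed Nup107 with 47.3 and 27.7, and 34.2 and 22.3, while Nup160, a partner of Nup107 in the Y complex, had none in either animal. For 8 other genes of the ASAP, PSAP and exon junction complexes the medians were 17.4 and 11.5, with Casc3, an exon junction subunit, at 26.6 and 20.6 and Pnn, the PSAP subunit pinin, at 18.7 and 14.3. For 10 other BAH domain genes they were 19.8 and 13.7, with Tnrc18 at 32.3 and 21.4 and Rere, a nuclear corepressor, at 24.9 and 15.4. In each of the 5 lists the median lay above that of all genes in both animals.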

How the data were processed

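DNase-seq peaks, footprints and false discovery rates of both animals are on mm10 and derive from each animal's own alignments, per the file headers and the deposited descriptions. Neither the aligner nor the peak and footprint callers could be taken from the sources used here. Peak heights are the authors' deposited signal values, which lay on a grid of 0.00542 and 0.00988 per step in animals 1 and 2, with 100% of heights within 0.1 step. Depth is otherwise unknown. The authors' false discovery rates, a measure like a p-value, were used up to 0.05. Each deposited footprint has 0.01 as its p-value entry, so only footprint positions were used.

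The larger of the 2 peak lists of each animal was used. Starts came from GENCODE M21 and sequence from GRCm38.p6, which is the C57BL/6J genome; CAST alleles were not examined. Words were counted in the 66 sequences of the primary assembly by a counter tested on simulated data. Copies were aligned with MAFFT v7.526 and BLAST+ 2.17.0+, and tables were made with Python 3.11.15, pandas 2.3.3 and numpy 2.4.6. With 1 group, no test was made.

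The genes, lists and rules were chosen with earlier results of these data known. Named genes were the 8 members, genes sharing their peak, the nearest gene on both sides, the genes of the 10 shared peaks after the members, and of each list the 3 highest and up to 3 without a peak. Some sequences and 1 marker gene are not reported here.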

Additional observations from a re-analysis of the deposited data

How the results depend on the processing

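No paired analysis was possible because both animals form 1 group. Of 41 alternative values of the main results, 35 stayed within the limits set for a change. All 48 for the heights of single genes did so too, which says little about stability. Their limit was the standard deviation of the 2 animals around their mean, and either animal alone always lies within it. The other settings found the same peaks and gave the same mean heights. Ranked by height times width in place of height, 0 of the 5 leading peaks stayed among the 10 highest of both animals, with ranks of 9 and 11 for Acin1, 21 and 29 for Hjurp, 34 and 59 for Dynlt1b, 37 and 141 for Bahcc1, and 96 and 115 for Nup107. Footprints in the 5 peaks, a mean of 25.5 per animal, came to 21 when only those wholly inside a peak were counted and to 49.0 over the accessible region. Leaving out each animal gave 23 to 28, which the same kind of limit always passes. With words of 76 bases, 2 of the 8 genes, Dynlt1b and Dynlt1c, in place of 4 had a repeated word in their highest promoter peaks. The median identity of Dynlt1b with its copies, 83.4%, was 94.7% over 500 bp on both sides and 80.1% with gaps as mismatches. With 2 animals and no depth given, no interval could be set on a height.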
